A study of Mus musculus with 12 samples.

Results

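Chemokine receptors are the surface proteins by which lymphocytes read chemokine gradients, and 9 of their genes (Ccr2, Ccr7, Ccr8, Ccr9, Cx3cr1, Cxcr3, Cxcr4, Cxcr5 and Cxcr6) were followed by symbol among the 5545 genes analysed here. All 9 were found. Cells had been sorted from the livers of 6 female C57BL/6 mice (C57BL/6J in the study's methods), 3 lean and 3 obese, and each mouse gave 1 library of NK cells (lineage-negative NK1.1+ CD49a- CD49b+) and 1 library of ILC1 (lineage-negative NK1.1+ CD49a+ CD49b-), 12 libraries in all. From weaning the lean mice ate the standard RM1 diet, and the obese mice ate an obesogenic diet (824018, labelled 45% AFE fat) with condensed milk, for 12 weeks in both cases. The labels name no engineered allele. The sort was made on surface markers, so that a library could hold other cells that passed the gate, and in sorted bulk RNA a smaller number of cells of a type cannot be told apart from less RNA per cell.

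Chemokine receptors are G protein-coupled receptors that turn binding of a chemokine into directed movement and integrin activation. In the liver, NK cells circulate through the sinusoids whereas ILC1 are largely resident, and the residents are known for CXCR6, whose ligand CXCL16 is presented by sinusoidal endothelium and macrophages. CXCR3 reads the interferon-induced chemokines CXCL9, CXCL10 and CXCL11, CX3CR1 reads fractalkine, CCR2 reads CCL2, and CXCR4 reads CXCL12 and holds cells in the bone marrow. CCR7 and CXCR5 are the receptors that lead lymphocytes into lymph node zones, CCR9 is a gut and thymus homing receptor, and CCR8 is the receptor of CCL1.

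Of the 9 receptor genes, 6 are on chromosome 9 (Ccr2, Ccr8, Ccr9, Cx3cr1, Cxcr5 and Cxcr6), with Cxcr4 on chromosome 1, Ccr7 on chromosome 11 and Cxcr3 on the X chromosome. In the RefSeq annotation of GRCm38.p6, Ccr9 and Cxcr6 are neighbours on the plus strand with start sites 39.3 kb apart, and Cx3cr1 (minus strand) and Ccr8 (plus strand) point away from each other with start sites 23.8 kb apart. Promoter sequence was at hand for 7 receptors in RefSeq; Ccr7 and Cxcr5 were not matched. The 250 bases before the start site are shown for Cxcr6, Cxcr3 and Ccr8, which were called higher in ILC1, and for Cx3cr1, the neighbour of Ccr8 that had the lower values there. Each is written 5′ to 3′ on the strand of its gene, and capitals mark the letters TGTGGT (Runx) or AGGAAG (Ets) or their reverse complements ACCACA and CTTCCT. The windows are chr9:123806227-123806476 on the plus strand, chrX:101734148-101734397 on the minus strand, chr9:120091883-120092132 on the plus strand and chr9:120068297-120068546 on the minus strand.
Cxcr6: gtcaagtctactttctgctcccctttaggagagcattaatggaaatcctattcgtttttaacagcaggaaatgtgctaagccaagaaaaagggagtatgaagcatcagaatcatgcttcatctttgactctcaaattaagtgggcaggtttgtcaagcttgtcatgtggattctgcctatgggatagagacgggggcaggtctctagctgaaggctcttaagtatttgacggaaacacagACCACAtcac
Cxcr3: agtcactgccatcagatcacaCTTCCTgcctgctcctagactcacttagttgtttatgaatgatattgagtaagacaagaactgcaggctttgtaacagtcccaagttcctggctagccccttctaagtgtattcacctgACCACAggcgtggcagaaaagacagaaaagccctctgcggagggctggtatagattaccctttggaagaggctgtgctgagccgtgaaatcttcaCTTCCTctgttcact
Ccr8: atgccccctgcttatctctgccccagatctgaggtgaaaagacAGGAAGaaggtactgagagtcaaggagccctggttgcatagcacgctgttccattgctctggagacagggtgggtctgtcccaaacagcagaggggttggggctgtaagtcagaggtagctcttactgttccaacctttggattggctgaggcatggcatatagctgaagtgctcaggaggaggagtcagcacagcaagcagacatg
Cx3cr1: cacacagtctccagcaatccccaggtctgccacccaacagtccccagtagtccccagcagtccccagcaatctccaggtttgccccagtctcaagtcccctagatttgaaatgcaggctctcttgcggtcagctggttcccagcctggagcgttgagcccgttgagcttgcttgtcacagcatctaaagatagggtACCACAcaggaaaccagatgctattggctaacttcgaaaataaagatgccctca
The Runx letters stood in 3 of the 7 receptor windows (Cxcr6, Cxcr3 and Cx3cr1) and in 14.0% of all 32851 windows of this length. In Cxcr6 they ended 5 bases before the start site. The Ets letters stood in 3 of the 7 (Ccr8, Ccr9 and Cxcr3, which had 2 matches) and in 29.5% of all windows, and the T-box letters AGGTGT, searched on both strands, in 0 of the 7 and in 11.8% of all windows. The motifs did not overlap one another. Both a receptor that was higher in ILC1 and one with lower values there held the Runx letters.

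Over the genes analysed here the libraries held 1666637 to 2826766 counts, and 1948 to 3292 genes had a count. Cd200r1, an ILC1 marker outside the receptor family, had 2809 to 3566 raw counts in lean ILC1 and 11 to 38 in lean NK cells, so that the marker followed the labels. One library stood apart: obese ILC1 replicate 26 held 490 raw counts of Cd200r1 where the other obese ILC1 libraries held 5028 and 6188, 3278 of Cd7 (a lymphocyte surface protein) against 43863 or more in the other ILC1 libraries, and 87894 of Alb (albumin, of hepatocytes), 5800 of Clec4f (of Kupffer cells), 3003 of Cd79a (of B cells) and 1700 of Csf3r (of neutrophils). Values without this library are therefore given beside the results that use it where it moves them. Lean NK replicate 27 had the fewest genes with a count, 1948.

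Liver NK cells and ILC1 differed in the receptor transcripts they held most of. Levels were compared between genes only as the authors' normalized count per kb of the annotated principal transcript. On this scale the order in lean ILC1 was Cxcr6 (11069 ± 1526, SD, n = 3), Cxcr3 (3985 ± 347.6), Ccr2 (668.3 ± 66.1), Ccr8 (150.6 ± 54.7) and Cx3cr1 (44.0 ± 48.3), and the ranges of neighbours in this order did not overlap. Below them Ccr9, Ccr7, Cxcr4 and Cxcr5 followed, and Cx3cr1 overlapped with Ccr9. In lean NK cells Ccr2 came first (1151 ± 176.1), and Cx3cr1 (381.6 ± 130.3) and Cxcr3 (379.4 ± 202.0) followed with overlapping ranges. Cxcr6 (41.1 ± 11.1) and Cxcr4 (27.3 ± 18.6) came next and also overlapped. Ccr2 made up 57.8% ± 0.947 (SD, n = 3) of the receptor transcripts per kb in lean NK cells and 57.7% ± 1.08 in obese NK cells, whereas Cxcr6 made up 69.3% ± 1.64 in lean ILC1. In obese ILC1 the share of Cxcr6 was 54.1% ± 15.8, with 35.9% in replicate 26 and 62.4% and 63.9% in the other libraries.

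**Figure D1:**
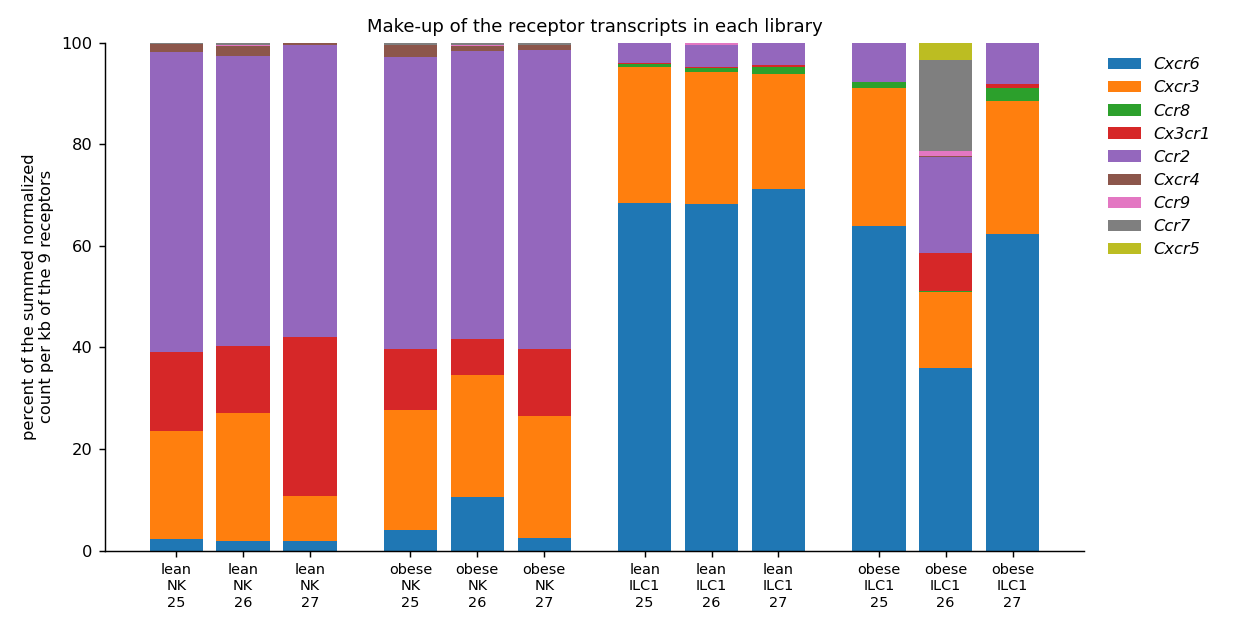
Share of each receptor (percent, vertical axis) in the summed normalized count per kb of the 9 receptors, 1 bar per library. Ccr2 is the widest band in the 6 NK libraries and Cxcr6 in the 6 ILC1 libraries, and obese ILC1 replicate 26 is the library with wide Ccr7 and Cxcr5 bands.

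Cxcr6 had the smallest adjusted p of the receptors between the 2 cell types in lean and in obese mice. Its normalized count was 100, 76 and 58 in lean NK replicates 25, 26 and 27 and 202, 564 and 133 in obese NK cells. It was 21087, 18060 and 23848 in lean ILC1 and 17506, 6272 and 11470 in obese ILC1. Every ILC1 library was above every NK library, and obese ILC1 replicate 26 was the lowest of the ILC1 libraries. In the quasi-likelihood test of edgeR, with p-values adjusted over the 2606 genes tested (Benjamini-Hochberg), Cxcr6 was higher in ILC1 by a log2 fold change of 8.07 (standard error 0.684, adjusted p = 0.00019) in lean mice and 5.25 (standard error 0.601, adjusted p = 0.00251) in obese mice. A gene was called where its adjusted p was under 0.05 and its fold change over 2. With the mouse as a block the adjusted p was 0.0157 in lean and 0.0818 in obese mice, and with the obese libraries fitted alone it was 0.149. The obese log2 fold change was 5.55 without obese ILC1 replicate 26 (adjusted p = 0.000275) and 6.08 without obese NK replicate 26, called in both. Cxcr6 was higher in ILC1 in 6 of 6 mice.

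Cxcr3 followed the same direction with a smaller difference. Its normalized count was 814, 900 and 256 in lean NK cells and 1070, 1176 and 1197 in obese NK cells. In lean ILC1 it was 7477, 6276 and 6940, and in obese ILC1 6770, 2390 and 4371. All ILC1 libraries lay above all NK libraries, and the lowest library of each cell type was lean NK replicate 27 and obese ILC1 replicate 26. By edgeR the log2 fold change was 3.40 (standard error 0.488, adjusted p = 0.00357) in lean mice. In obese mice it was 1.93 (standard error 0.460, adjusted p = 0.073), and without obese ILC1 replicate 26 it was 2.24 (adjusted p = 0.0191). DESeq2 over all 12 libraries gave Cxcr3 an adjusted p of 6.4e-09 in lean and 0.00439 in obese mice.

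Ccr8 was close to undetected in NK cells. Its normalized count was 1, 0 and 0 in lean NK cells and 0, 0 and 4 in obese NK cells, against 144, 136 and 251 in lean ILC1 and 194, 18 and 300 in obese ILC1. The lowest ILC1 library, with 18, was again obese ILC1 replicate 26, and it was still above every NK library. The 3 lean NK libraries together held 1 raw count of Ccr8 and the 3 lean ILC1 libraries 521. Scaled by the authors' factors for the libraries, the ratio was 546 (exact 95% interval 97.5 to 21602, counting error only). In obese mice the raw counts were 6 and 592 (ratio 146, interval 66.5 to 398). By edgeR the log2 fold change was 8.67 (standard error 1.95, adjusted p = 0.0429) in lean mice, a size that depends on the prior count and was 10.6 without lean NK replicate 25. The lean call was lost with the mouse as a block (adjusted p = 0.119), without the filter on low counts (adjusted p = 0.0538), and when any one of 9 of the 12 libraries was left out (highest adjusted p = 0.195, without lean NK replicate 26); it was kept without obese NK replicate 27, obese ILC1 replicate 25 or obese ILC1 replicate 26. In obese mice the adjusted p was 0.0984, and it was 0.0428 without obese ILC1 replicate 26. DESeq2 over all 12 libraries gave Ccr8 an adjusted p of 1.29e-05 in lean and 0.000108 in obese mice.

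All 3 were also higher in every ILC1 library than in every NK library, as were 3.03% of all genes tested. Averaged over both diets, edgeR called 3 of the 8 receptors tested higher in ILC1 (Cxcr6, Ccr8 and Cxcr3) and 0 lower, where 3.15% of all genes tested were called higher and 1.19% lower. The median log2 fold change was 2.49 over the 8 receptors and 0.04 over all genes tested. Ccr7, next to this median at 2.30, was at -1.90 without obese ILC1 replicate 26. The median of the receptors thus rests in part on that library, and it was not computed without it. In lean mice the same 3 receptors were called (1.5% of all genes were called higher). In obese mice Cxcr6 alone was called (0.537% of all genes were called higher), and without obese ILC1 replicate 26 all 3 were (1.22% of all genes). Cxcr5 had too few counts outside replicate 26 to be tested. With the mouse as a block all 3 were called in the average (adjusted p of 0.00506 for Cxcr6, 0.0132 for Cxcr3 and 0.0286 for Ccr8), 2 in lean mice and 0 in obese mice, where 1.23%, 0.614% and 0.0% of all genes were called higher.

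**Figure D2:**
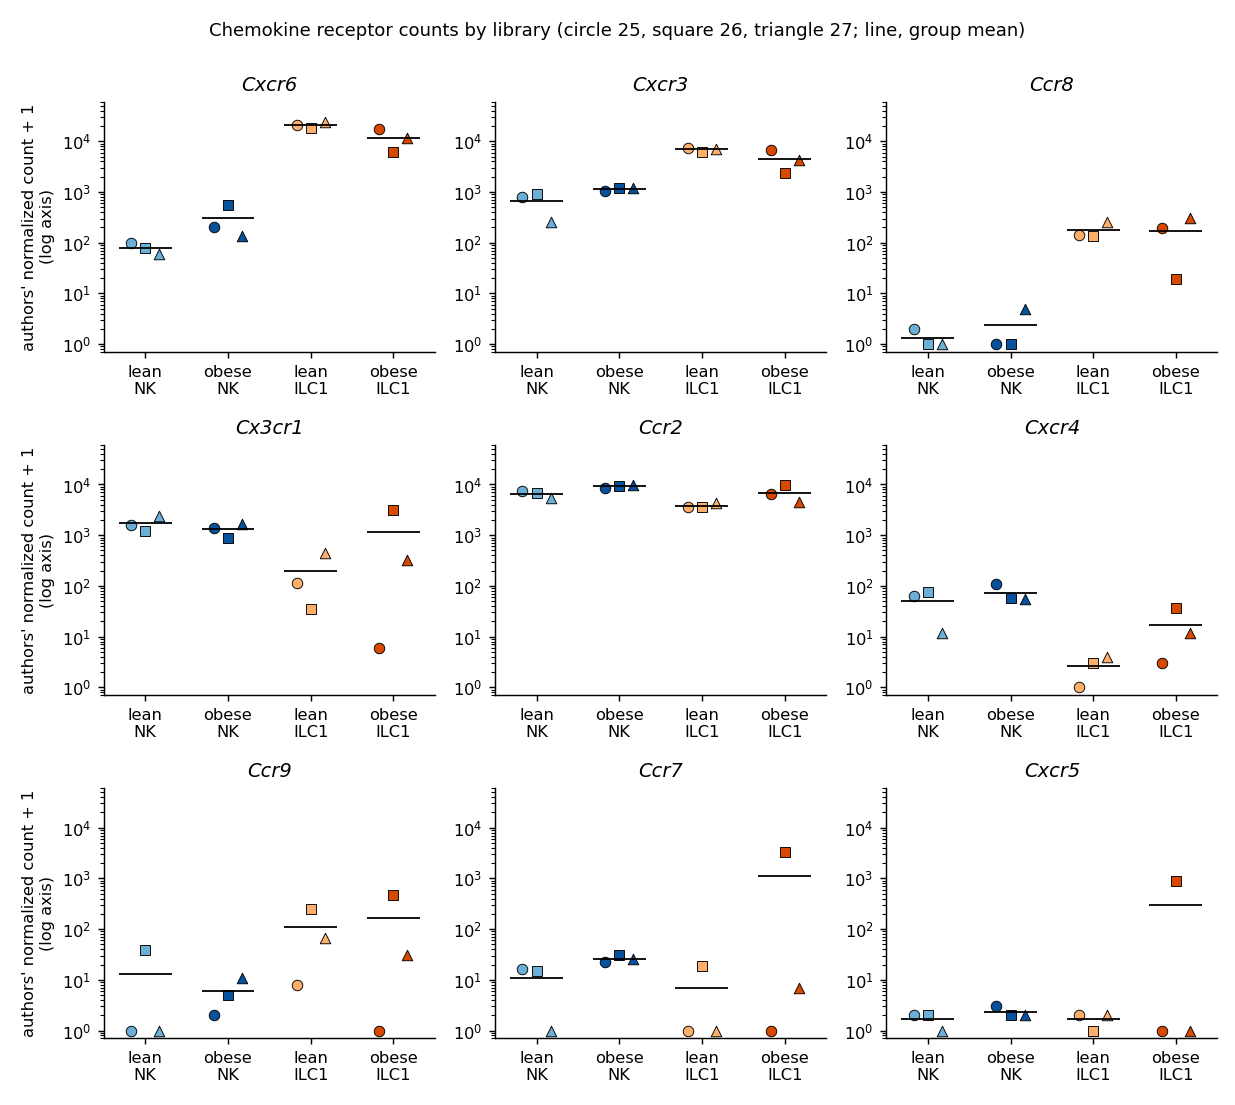
Normalized count plus 1 of each receptor (log axis) in the 4 groups, with 1 point per library (circle, replicate 25; square, 26; triangle, 27) and a line at the group mean. Cxcr6, Cxcr3 and Ccr8 show ILC1 libraries above all NK libraries, and the single high square in Ccr7 and Cxcr5 is obese ILC1 replicate 26.

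T cells and NKT cells also carry Cxcr6, Cxcr3 and Ccr8, and the 10 T cell markers of the lists were therefore set beside these 3 receptors. Of the 8 that were tested, edgeR called 4 higher in ILC1, averaged over diets (Cd3d, Cd3e, Cd3g and Cd40lg). The list held 0.817% to 0.961% of the counts in lean ILC1 and 0.272% to 0.771% in obese ILC1. It held 0.0485% to 0.103% in lean NK cells and 0.0809% to 0.116% in obese NK cells. In lean ILC1 most of these counts were Cd3g, a chain of the T cell receptor complex, with 12045 to 13275 raw counts, where Cd3e had 263 to 1026. Cd40lg, a ligand that activated T cells display, had normalized counts of 104 to 208 in lean ILC1 and 0 in all lean NK libraries. Cd8a and Cd8b1 were at 0 in all 3 lean ILC1 libraries. The part of T cell transcripts in the result was not tested.

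Cx3cr1, Cxcr4 and Ccr2 had lower values in ILC1 but were not called by edgeR. Cx3cr1 had normalized counts of 1560, 1222 and 2362 in lean NK cells and 1387, 887 and 1695 in obese NK cells. In lean ILC1 it had 115, 34 and 444, and in obese ILC1 5, 3111 and 317. In lean mice every ILC1 library lay below every NK library, as in 11.4% of all genes tested. In obese mice the 3111 of ILC1 replicate 26 lay above all NK libraries and the other ILC1 libraries below them. By edgeR the log2 fold change in lean mice was -3.11 (standard error 1.45, adjusted p = 0.396). Averaged over diets it was -1.72 (adjusted p = 0.404), and without that library -3.09 (adjusted p = 0.0607). DESeq2 without that library called it lower in the average (adjusted p = 0.00246, where 4.57% of all genes were called lower) and in lean mice (adjusted p = 0.0444, 3.24% of all genes). Kupffer cell and other macrophage markers held 1.58% of the counts in obese ILC1 replicate 26 and at most 0.118% in the other ILC1 libraries. The part of other cells in the Cx3cr1 count of that library was not tested. Over the other ILC1 libraries Cx3cr1 still ranged from 5 to 444.

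Cxcr4 was a low transcript with normalized counts of 63, 74 and 11 in lean NK cells, 108, 58 and 53 in obese NK cells, 0, 2 and 3 in lean ILC1 and 2, 35 and 11 in obese ILC1. It was lower in ILC1 in 6 of 6 mice. In each diet the 2 cell types did not overlap (11.4% of all genes were lower in every ILC1 library in lean mice and 13.7% in obese mice), whereas over both diets the 11 of lean NK replicate 27 fell inside the ILC1 range. By edgeR the averaged log2 fold change was -3.52 (standard error 0.974, adjusted p = 0.0605), and without lean NK replicate 27 it was -3.77 (adjusted p = 0.0413), which passed both thresholds. Without obese ILC1 replicate 26 it was -4.10 (adjusted p = 0.0505). DESeq2 called it lower in the average (adjusted p = 0.000201, 2.66% of all genes) and in lean mice (adjusted p = 0.00151, 2.08% of all genes). In obese mice DESeq2 called it without obese ILC1 replicate 26 (adjusted p = 0.0248, 3.51% of all genes) and not with it. The 3 lean ILC1 libraries held 5 raw counts in all and the lean NK libraries 151. Scaled by the authors' factors for the libraries, the ratio was 0.0347 (exact 95% interval 0.0111 to 0.0828, counting error only).

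Ccr2 was abundant in both cell types. Its normalized count was 7502, 6764 and 5507 in lean NK cells and 3664, 3559 and 4261 in lean ILC1, without overlap. In obese mice it was 8614, 9146 and 9698 in NK cells and 6453, 9928 and 4459 in ILC1, where replicate 26 was the highest of both. By edgeR the averaged log2 fold change was -0.62 (standard error 0.166, adjusted p = 0.0552), and without obese ILC1 replicate 26 it was -0.79 (adjusted p = 0.00236), under the fold change of 2 that a call needed.

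The remaining receptors rested on few libraries. Ccr9 had normalized counts of 7, 247 and 66 in lean ILC1 and 0, 461 and 30 in obese ILC1, against 0, 37 and 0 in lean NK cells and 1, 4 and 10 in obese NK cells. The highest library of lean NK cells and of both ILC1 groups was replicate 26 each time, although the lean and obese mice of that number were different animals. Cd6, a T cell surface protein and one of the genes most like Ccr9 here, had 391 normalized counts in lean ILC1 replicate 26. It had 888 in obese ILC1 replicate 26 and at most 170 in the other ILC1 libraries. The 10 T cell markers together held 0.961% of the counts in lean ILC1 replicate 26 and 0.817% in lean replicates 25 and 27. In obese ILC1 they held 0.332% in replicate 26, 0.771% in replicate 25 and 0.272% in replicate 27. The part of T cells in the Ccr9 counts was not tested. The averaged log2 fold change of Ccr9 was 4.02 (standard error 1.72, edgeR adjusted p = 0.230). It was 2.35 without obese ILC1 replicate 26 and 7.39 without lean NK replicate 26, again not called. Ccr7 had 3279 and Cxcr5 881 normalized counts in obese ILC1 replicate 26. In the other 11 libraries Ccr7 reached at most 30 and Cxcr5 at most 2. The log2 fold change of Ccr7 between the cell types in obese mice went from 5.30 to -3.09 when that library was left out (edgeR, not called in either fit). Both are receptors of B cells and T cells. The B cell markers held 0.563% of the counts in obese ILC1 replicate 26 and at most 0.0222% in the other ILC1 libraries. The T cell markers, at 0.332%, were inside the range of the other ILC1 libraries. Dendritic cell markers held 0.0895% in replicate 26 and at most 0.0070% in the other ILC1 libraries. The part of these cells in the Ccr7 and Cxcr5 counts was not tested.

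The diet comparison asked whether the receptors of either cell type differed between obese and lean livers. In NK cells 0 of the 8 receptors tested were called by edgeR, as were 0.0% of all genes, and 31 genes had an unadjusted p under 0.05 (DESeq2 called 8 genes and 0 receptors). The values of Cxcr6 given above were higher in all obese than in all lean NK libraries, 299.7 ± 231.5 against 78.0 ± 21.1 (SD, n = 3), a log2 fold change of 1.97 (standard error 0.527, edgeR adjusted p = 1). Obese NK replicate 26, at 564, was the highest, and without it the log2 fold change was 1.13 (adjusted p = 1). Cxcr3 was likewise higher in every obese NK library, 1148 ± 68.1 against 656.7 ± 349.6 (log2 fold change 0.83, standard error 0.448, edgeR adjusted p = 1). Lean NK replicate 27 was the lowest, at 256, and without it the log2 fold change of Cxcr3 was 0.45. Ccr2 was 9153 ± 542.0 in obese and 6591 ± 1009 in lean NK cells (log2 fold change 0.51, standard error 0.235, edgeR adjusted p = 1). Ccr7 did not overlap either, with normalized counts of 21, 30 and 25 in obese and 15, 14 and 0 in lean NK cells. These 4 receptors were higher in every obese library, as were 9.9% of all genes tested. For each of the 4 the exact two-sided permutation test gave p = 0.1, the smallest that 3 libraries against 3 allow. DESeq2 without obese ILC1 replicate 26, which is not an NK library but shares the estimate of the spread, called Cxcr6 higher in obese NK cells (adjusted p = 0.0494), as it did 0.471% of all genes.

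The other genes of ILC1 were set beside the Cxcr6 of obese NK cells. Relative to the mean ILC1 level of the same diet, with replicate 26 left out for obese mice, the Cxcr6 level of NK cells was 0.276% to 0.476% in lean and 0.918% to 3.89% in obese mice. For Cd200r1, an inhibitory receptor of ILC1, the NK level was 0.327% to 1.04% in lean and 1.61% to 3.11% in obese mice. Obese NK replicate 26 was the highest of its group for both genes. For Cxcr3 the NK level was 3.71% to 13.1% of the ILC1 level in lean mice and 19.2% to 21.5% in obese mice. The 3.71% was that of lean NK replicate 27, and the other lean NK libraries were at 11.8% and 13.1%. Ccr8 was at 0.565%, 0% and 0% in lean NK cells and at 0%, 0% and 1.62% in obese NK cells (1 and 4 normalized counts in the libraries above 0). The T cell receptor genes were also at higher percentages in obese mice. Cd3g was at 0.920% to 1.76% in lean and 2.76% to 5.26% in obese mice, Cd3e at 1.88% to 5.98% and 14.4% to 39.1%, and Cd3d at 6.73% to 13.7% and 37.3% to 73.0%. For these 3 genes the mean ILC1 level without replicate 26 was itself lower in obese mice, 7318 against 13041 normalized counts for Cd3g, 284 against 585.7 for Cd3e and 499 against 1160.0 for Cd3d. That level was also lower in obese mice for Cxcr6 (14488 against 20998) and Cxcr3 (5570 against 6898). It was higher for Cd200r1 (5277 against 3369), Ccr8 (247 against 177) and Ccl1 (1236 against 149). The percentages of the 2 diets thus rest on different ILC1 levels. Ccl1 was at 0% to 0.671% in lean and 0.405% to 1.21% in obese mice. Hepatocyte markers held 0.00228% to 0.0108% of the counts in lean NK cells and 0.0103% to 0.0468% in obese NK cells, and their part was not tested. Whether ILC1 within the NK gate or NK cells themselves carried the Cxcr6 transcripts was not tested. The obese NK libraries also held more counts (2306550 to 2826766) than the lean NK libraries (1845970 to 2136211).

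In ILC1 0 receptors were called between diets by edgeR, as were 0.0% of all genes, and 277 genes had an unadjusted p under 0.05 (DESeq2 called 77 genes and 0 receptors). Cxcr6 was lower in all obese ILC1 libraries, 11749 ± 5622 against 20998 ± 2895 in lean ILC1 (SD, n = 3; log2 fold change -0.86, standard error 0.504, edgeR adjusted p = 0.578). Without replicate 26 the obese libraries, at 17506 and 11470, were still below the lowest lean library, 18060, and the log2 fold change was -0.53 (adjusted p = 0.757). Ccr2 was higher in every obese ILC1 library, with a log2 fold change of 0.81 (standard error 0.236, edgeR adjusted p = 0.266), and 0.51 without replicate 26 (adjusted p = 0.397). Macrophage and Kupffer cell markers held 0.00920% to 0.0253% of the counts in lean ILC1 and 0.0953% and 0.118% in obese ILC1 replicates 25 and 27. In replicate 26 they held 1.58%, and their part in the diet differences of ILC1 was not tested. Ccr2 was thus higher in every obese library of both cell types, but it was called in neither. The share of all genes with this joint pattern was not counted. Of all genes tested, 7.29% were higher and 7.94% lower in every obese ILC1 library. The fold changes of Ccr7, Ccr8, Ccr9 and Cx3cr1 changed sign when replicate 26 was left out.

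**Figure D3:**
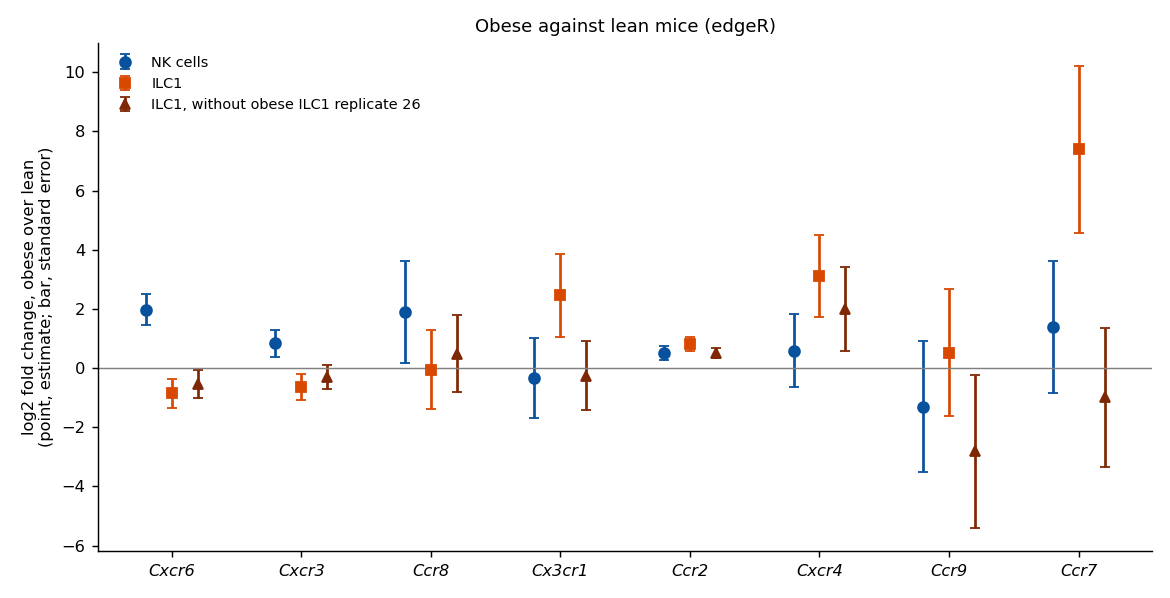
Log2 fold change of obese over lean mice by edgeR (points) with its standard error (bars) for the 8 receptors tested, in NK cells, in ILC1 and in ILC1 without obese ILC1 replicate 26. Cxcr6 lies above 0 in NK cells and below 0 in ILC1, and the Ccr7 estimate of ILC1 falls from 7.39 to -0.99 without that library.

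The test of the difference between the diet effects gave a log2 value of -2.82 for Cxcr6 (ILC1 minus NK cells, standard error 0.728, edgeR adjusted p = 0.647), -2.50 without obese ILC1 replicate 26 (adjusted p = 0.549) and -1.99 without obese NK replicate 26 (adjusted p = 1). For Cxcr3 it was -1.47 (standard error 0.633, edgeR adjusted p = 0.795), and -1.14 without obese ILC1 replicate 26 (adjusted p = 0.658). Of all genes tested, 0.652% (17 genes) were, like Cxcr6, higher in every obese NK library and lower in every obese ILC1 library. Neither receptor passed the threshold, as 0.0% of all genes did by edgeR (155 had an unadjusted p under 0.05) and 21 did by DESeq2. The DESeq2 adjusted p of Cxcr6 was 0.0897.

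Ligands and partners of the receptors were counted from lists. Of 17 genes for ligands of the 9 receptors, 6 were tested and 1, Ccl1, was called higher in ILC1. Ccl1 encodes the ligand of CCR8, and its normalized counts were 1, 0 and 0 in lean NK cells, 15, 6 and 5 in obese NK cells, 206, 39 and 202 in lean ILC1 and 1554, 133 and 917 in obese ILC1. Both the receptor gene Ccr8 and its ligand gene Ccl1 were thus higher in every ILC1 than in every NK library. The log2 fold change of Ccl1 was 8.42 (standard error 1.39, edgeR adjusted p = 0.00895) in lean mice and 6.60 (standard error 1.17, edgeR adjusted p = 0.0244) in obese mice, where the mouse as a block gave 0.128 and the fit without obese ILC1 replicate 26 a log2 fold change of 7.09 (adjusted p = 0.00303). Between diets Ccl1 was not called in ILC1 (log2 fold change 2.54, standard error 0.960, edgeR adjusted p = 0.332; 3.06 without obese ILC1 replicate 26, adjusted p = 0.305). Cxcl16, which encodes the ligand of CXCR6, had at most 13 normalized counts in lean ILC1 and at most 27 in NK cells, and 1430 in obese ILC1 replicate 26.

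Of 14 further chemokine receptors, 3 had enough counts to be tested and 0 were called in any comparison by edgeR. Of 9 genes for receptor desensitisation and migration signalling (such as the arrestins Arrb1 and Arrb2, and Cd69, which retains lymphocytes in tissue), 8 were tested and 0 were called in any comparison. The median log2 fold change of ILC1 over NK cells was -0.19 over these 8 and 0.04 over all genes tested. Cd69 had a log2 fold change of 0.62 (edgeR adjusted p = 0.0635).

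The genes whose log2 CPM were most like those of each receptor were found by Pearson's r over the 12 libraries, as a description. The libraries fall into 2 cell types, so that any gene that differs between them correlates with these receptors. Cxcr6 was most like Cd200r2 (r = 0.985), Adam19 (r = 0.985) and Cd200r1 (r = 0.979). Cxcr3 was most like Asb2 (r = 0.987), and Ccr8 was most like Cd200r2 (r = 0.967) and Cd200r1 (r = 0.947), with Cxcr6 next (r = 0.938). Without obese ILC1 replicate 26 these values lay between 0.952 and 0.993. Cx3cr1 was most like 1810034E14Rik (r = 0.952) and Cd55 (r = 0.928), Cxcr4 like Angpt1 (r = 0.930) and Ccr2 like Cd300lf (r = 0.897). Ccr7 was most like Apoa5 (r = 0.940), an apolipoprotein gene of hepatocytes that had 8932 raw counts in obese ILC1 replicate 26 and at most 51 elsewhere, and r fell to 0.800 without that library. Ccr9 was most like 9830147E19Rik (r = 0.883) and Cd6 (r = 0.873).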

How the data were processed

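RNA from liver NK cells and ILC1 of 3 lean and 3 obese mice was sequenced from 2 ng of total RNA per library. The submitters' processing notes name bcl2fastq 2.19, Trimmomatic 0.36.5, STAR 2.5.2b, featureCounts 1.6.0.2 and mm10; strand use was not given in the sources used here. The authors deposited raw counts per gene and a score, the same counts divided by a factor per library (0.57 to 1.52) and rounded, called the normalized count here. The table used here ends at Cyp26b1 (5545 complete genes, 1 incomplete row left out), so the counts per library understate the depth.

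Raw counts were tested in R 4.3.3 with edgeR 4.0.16 (TMM, filterByExpr, glmQLFTest, 1 model of 4 groups over the 12 libraries). Calls needed an adjusted p (Benjamini-Hochberg) under 0.05 with a fold change above 2. Standard errors were taken as log2 fold change over the square root of F. Alternatives were DESeq2 1.42.0, edgeR scaled by its size factors or fitted unfiltered, with a replicate block, on the compared libraries alone, and with each library left out. Scripts were tested on simulated data. Lengths came from the longest APPRIS principal transcript of GENCODE (GRCm38), and positions and promoters from RefSeq (GRCm38.p6). The receptors and lists were chosen with earlier results of these data known; from each list, called genes were named, with 3 most similar genes for each receptor. NK cells and ILC1 of the same diet and number came from the same mouse, by the study's design; deviations from the group means correlated between them at r = -0.0763 to 0.141. Lean and obese mice of the same number were different animals. Intervals cover counting error only. No 2 libraries held identical counts.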

Additional observations from a re-analysis of the deposited data

Results flagged for a closer look

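The Cxcr6 counts of the obese NK libraries all lay above those of the lean NK libraries, with a log2 fold change of 1.97, whereas in ILC1 every obese library was below every lean one. It was picked out because the libraries of the 2 cell types moved in opposite directions with the diet. The difference of the diet effects was tested in edgeR and did not pass the threshold (log2 value -2.82, standard error 0.728, adjusted p = 0.647). With each library left out in turn the NK value ranged from 1.13 to 2.30 and the difference from -3.24 to -1.99, the smallest sizes being those without obese NK replicate 26. Of all genes tested, 0.652% showed the same pattern.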

How the results depend on the processing

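Cxcr6 and Cxcr3 were called higher in ILC1, averaged over diets and in lean mice, under all alternatives, and Cxcr6, Cxcr3, Ccr8, Ccr2 and Cxcr4 kept their direction in these comparisons. Of the 8 receptors tested, edgeR called 3 to 4 on average, 2 to 3 in lean mice, 1 to 3 in obese mice and 0 between diets when each library was left out in turn. DESeq2 called 3 receptors in obese mice. DESeq2 without obese ILC1 replicate 26, chosen after seeing the data like the removal of 2 libraries below, called 5 on average, 5 in lean mice, 4 in obese mice and 1 between diets in NK cells. The replicate block (the mouse for the cell types, the number for the diets) and the fit of the compared libraries alone each called 0 in obese mice.

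Over all genes, the counts called on average, in lean mice, in obese mice, between diets in NK cells, between diets in ILC1 and for the difference of diet effects were 222, 151, 154, 8, 77 and 21 with DESeq2, and 273, 213, 184, 12, 76 and 28 with DESeq2 without obese ILC1 replicate 26. They were 113, 60, 24, 0, 0 and 0 as reported. The replicate block gave 46, 21 and 0 in the first 3 of these, and the obese libraries alone gave 0. Leaving out each library gave 63 to 161, 29 to 102, 5 to 66, 0 to 1, 0 to 6 and 0 to 1. Without obese ILC1 replicate 26 and lean NK replicate 27 there were 177, 101 and 107 in the first 3, with 3 receptors in obese mice, and 5 between diets in ILC1.

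Directions turned for Ccr7, Ccr8, Ccr9 and Cx3cr1, none of them called in the comparison concerned. With the replicate block the log2 fold change of Ccr7 was -1.48 on average and -1.25 in obese mice, and that of Ccr9 was 1.45 between diets in NK cells, -1.02 in ILC1 and -2.64 for the difference. With DESeq2 without obese ILC1 replicate 26, Ccr7 was -1.92 on average, -3.13 in obese mice, -1.03 between diets in ILC1 and -2.43 for the difference. In ILC1 between diets Ccr8 was then 0.49, Ccr9 -2.83 and Cx3cr1 -0.27, and the difference for Ccr9 was -1.48. Without both libraries Ccr7 was -2.19 on average, -3.08 in obese mice, -0.98 in ILC1 and -1.78 for the difference. Ccr8 was 0.49, Ccr9 -2.80 and Cx3cr1 -0.25 in ILC1, with differences of -0.91 for Ccr9 and -0.20 for Cx3cr1. With each library left out, Ccr7 ranged from -1.90 to 2.60 on average, from -3.09 to 5.90 in obese mice, from -0.99 to 13.1 in ILC1 and from -2.38 to 11.7 for the difference, and Cx3cr1 from -3.05 to 0.26 in obese mice, from -0.25 to 3.85 in ILC1 and from 0.08 to 4.18 for the difference. Ccr8 ranged from -1.89 to 3.80 in NK cells, from -0.77 to 0.49 in ILC1 and from -3.87 to 1.84 for the difference. Ccr9 ranged from -2.28 to 5.46, from -2.81 to 2.06 and from -4.96 to 3.38 in the same order. Apart from the removal of obese ILC1 replicate 26, the cause of these turns was not tested. The other scaling (DESeq2 size factors in edgeR) turned no direction and changed no call. With 3 libraries a group, and counts near 0 for Ccr8, Ccr7, Ccr9 and Cxcr5 in NK cells, smaller differences were not detectable.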
